A study of Rattus norvegicus with 23 samples.

Results

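The genes described here are the histone genes of microglia, the resident macrophages of the brain, in a neonatal rat model of inflammation-sensitised hypoxic-ischemic (HI) brain injury. Members were chosen by gene symbol, as all genes of the deposited log2 table named H1f, H2ac, H2bc, H3c or H4c with a number, or with the older Hist names. This gave 30 of 20301 genes, and 0 of them shared identical values across the libraries, so 30 separate profiles were described. They comprised 8 linker histone H1 genes, 8 H2A, 7 H2B, 4 H3 and 3 H4 genes. By textbook class, 24 were replication-dependent core or linker histone genes, 2 (H1f0 and H1f10) were replication-independent linker histones, and 4 (H1f6, H1f8, H2ac1 and H2bc1) were germline histones. The symbols and not the expression values picked the genes, but the family itself was selected on earlier results from the same libraries. All counts and p-values are therefore a description of these libraries.

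RNA sequencing had been performed on CD11b/c-positive cells, isolated with magnetic beads 24 h after the operation from 7-day-old Wistar rats of both sexes, in 4 groups. Sham pups (n = 6) had the neck incision without injection, and LPS pups (n = 5) received 0.1 mg/kg bacterial lipopolysaccharide (LPS) intraperitoneally 4 h before the same sham surgery. NaCl/HI (n = 6) and LPS/HI (n = 6) pups were injected with saline or LPS, followed by ligation of the left common carotid artery and 50 min at 8% oxygen. Sham and LPS samples held the entire brain of 1 pup, whereas each HI sample pooled the ipsilateral hemispheres of 2 pups. HI, the tissue taken and the pooling therefore cannot be told apart. LPS, NaCl/HI and LPS/HI pups also differed from Sham in having had an injection at all.

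The deposited values are log2 values after a regularised log transformation, so that a difference of 1 corresponds to a fold change of 2. Library medians over all genes lay between 7.75 and 7.82, and read totals are not contained in these values. The microglial marker Cx3cr1 ranged from 15.38 to 15.70 over the 23 libraries, and Csf1r, the receptor that microglia need for survival, from 16.30 to 16.64. Other microglial markers varied more, with P2ry12 between 13.44 and 14.41 and Tmem119 between 11.85 and 13.20. In bulk RNA, more cells of a kind and more RNA per cell cannot be told apart.

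Core histones H2A, H2B, H3 and H4 form the protein spool around which DNA is wound, and H1 binds the linker DNA between nucleosomes. Replication-dependent histone genes lack introns, lie in clusters and are transcribed mainly in S phase, when new DNA has to be packed. Their mRNAs usually end in a stem-loop in place of a poly(A) tail, whereas replacement histones are made from polyadenylated mRNAs throughout the cell cycle. The libraries were made with a kit that enriches polyadenylated RNA, so the values describe the part of the histone mRNA that this kit captured. Many histone copies are also nearly identical, and the pseudoalignment used by the authors divides reads between such copies. Single members are thus uncertain and are not independent of each other.

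Histone genes were highest in LPS, lowest in Sham and intermediate in both HI groups. Of the 30 genes, 28 had group means in the order LPS, LPS/HI, NaCl/HI, Sham, an order found for 12.4% of all genes. The 24 replication-dependent genes all followed it, and H1f8 and H2bc1 were the 2 exceptions. The mean deviation of the 24 replication-dependent genes from their own mean over all libraries was −0.38 ± 0.13 (SD, n = 6) in Sham and 0.50 ± 0.17 (SD, n = 5) in LPS. It was −0.13 ± 0.19 (SD, n = 6) in NaCl/HI and 0.09 ± 0.19 (SD, n = 6) in LPS/HI. The neighbouring HI groups overlapped, from −0.43 to 0.12 in NaCl/HI and from −0.27 to 0.27 in LPS/HI, while the lowest LPS library (0.35) lay above every library of the other 3 groups.

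**Figure D1:**
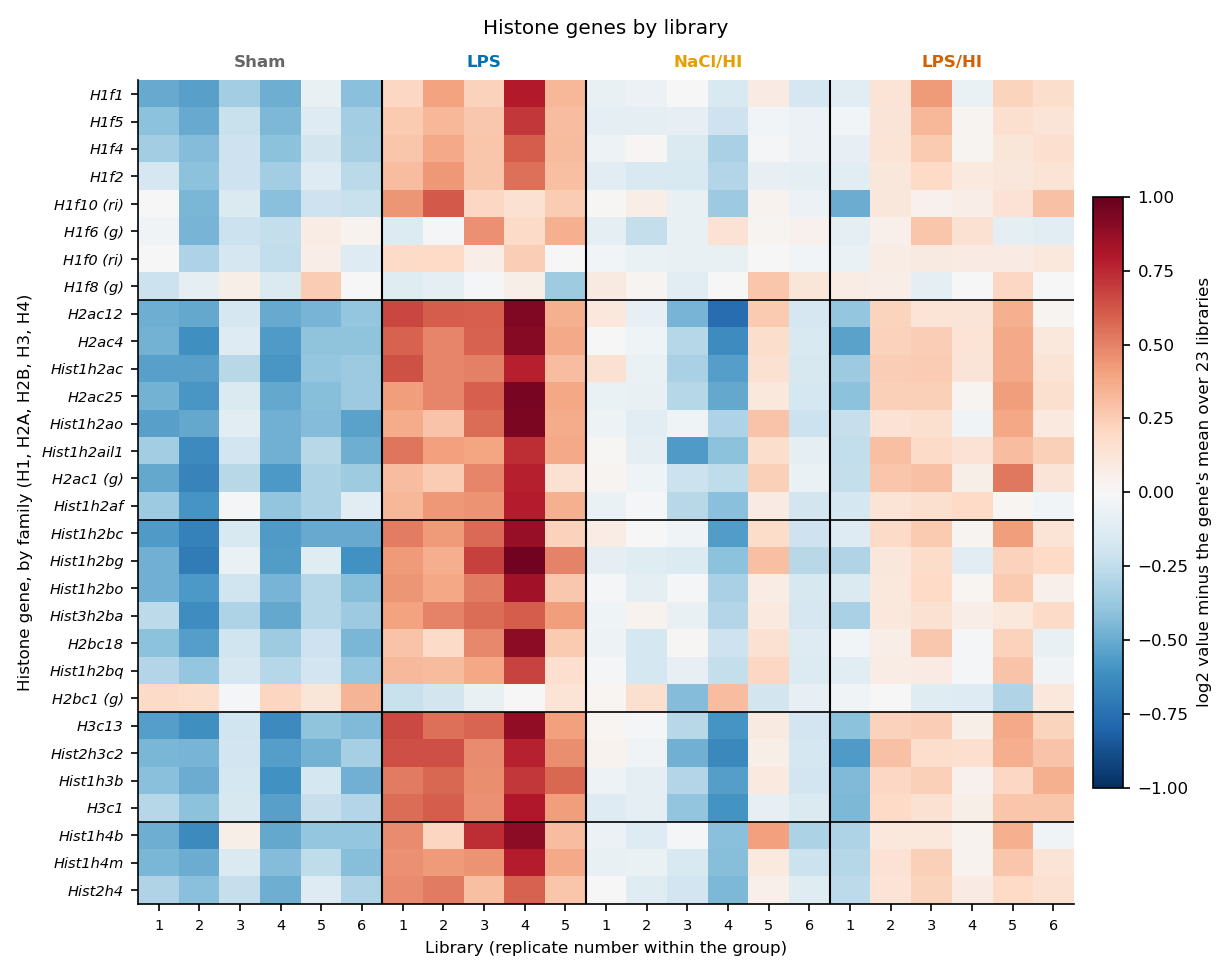
Heat map of 30 histone genes (vertical axis, ordered by family and then by the LPS against Sham difference) in 23 libraries (horizontal axis, by group and replicate), with colour giving the log2 value minus the mean of the gene over all libraries. Replication-independent genes are marked ri and germline genes g. The LPS columns are red for nearly all genes, LPS replicate 4 most of all, and LPS/HI replicate 1 and NaCl/HI replicate 4 are bluer than the rest of their groups.

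Single libraries stood apart within their groups. LPS replicate 4 had the highest value of all 23 libraries for 24 of 24 replication-dependent genes, with a mean deviation of 0.79, and Sham replicate 2 had the lowest value for 15 of them, with a mean deviation of −0.54. NaCl/HI replicate 4 (−0.43) and LPS/HI replicate 1 (−0.27) were the lowest of their groups. A list of 24 genes of G2 and mitosis was highest in LPS replicate 4 as well (mean log2 value 11.44) and lowest in Sham replicate 2 (10.30). LPS/HI replicate 1 differed in this respect, with a G2 and mitosis mean of 10.89 within a group range of 10.75 to 11.04. The part of proliferation in the histone values was not tested.

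The first question was what LPS alone did to histone genes. In the LPS group 27 of 30 genes were higher than in Sham at an adjusted p under 0.05 (limma, Benjamini-Hochberg over all genes), as were 10.2% of all genes. All 24 replication-dependent genes were among them, with a median difference of 0.90 and a range from 0.63 to 1.09, while the median over all genes was −0.01. For 26 of the 30 genes the 2 groups did not overlap, against 8.05% of all genes. With a fold change above 2 required as well as the adjusted p, 13 genes of the whole table were higher (0.064%), of which 6 were histone genes (H3c13, H2ac12, H2ac4, Hist1h2bc, Hist2h3c2 and Hist1h2bg). By family, the median difference of the replication-dependent genes was 0.99 for H3, 0.98 for H2A, 0.89 for H2B, 0.86 for H4 and 0.71 for H1. The labels number the libraries 1 to 23, running through the groups for replicates 1 to 3 and then again from library 13 on, without saying what this order means. Split on that basis, the median over the 30 genes was 0.81 in libraries 1 to 12 and 0.93 in libraries 13 to 23.

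**Figure D2:**
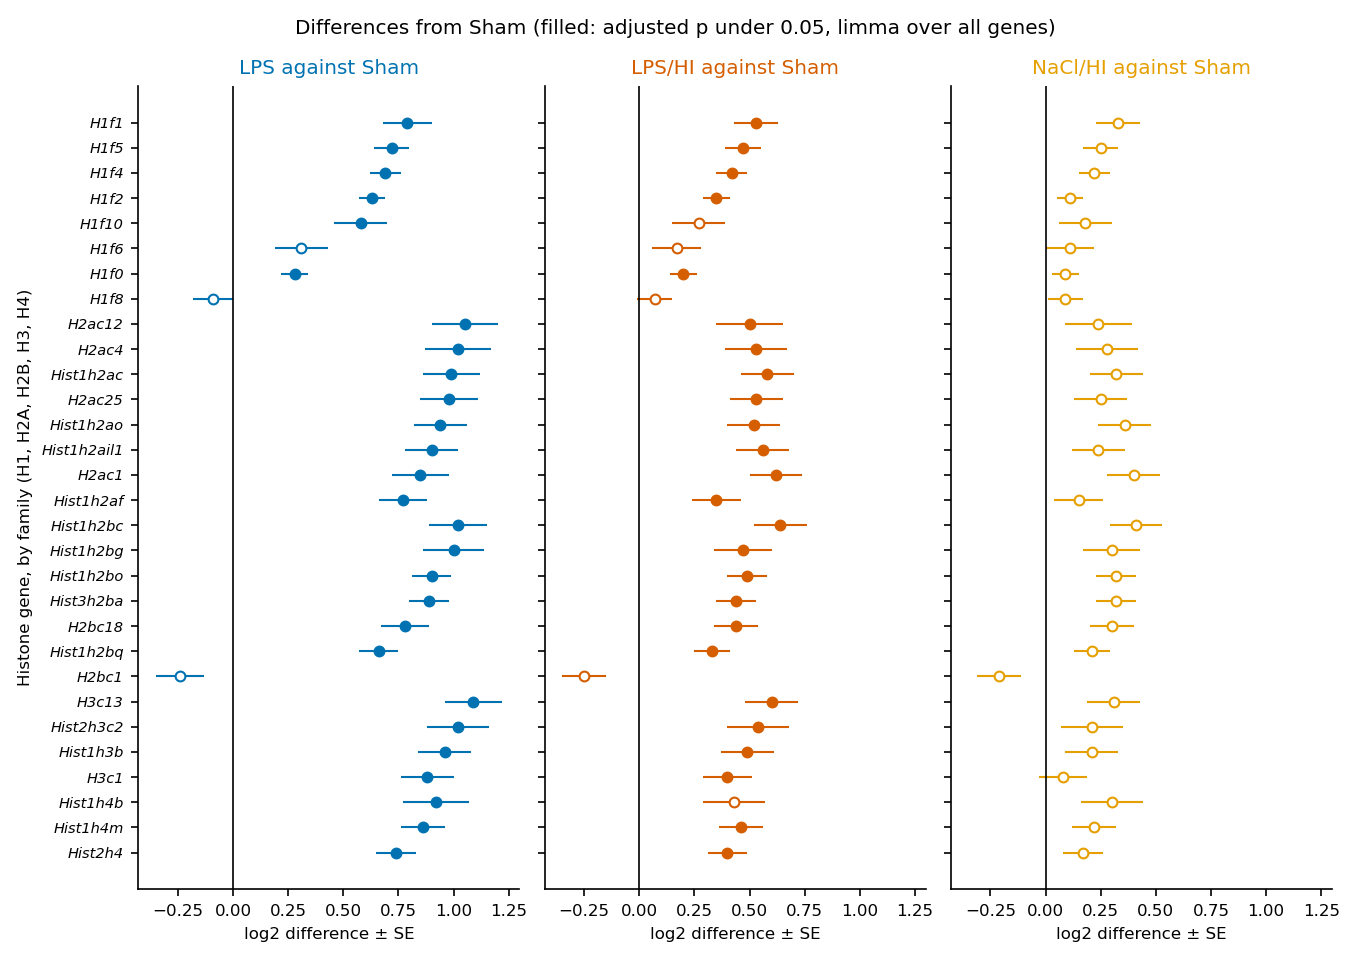
Log2 difference from Sham (horizontal axis, points, with SE as bars) of the 30 histone genes (vertical axis, by family) in LPS, LPS/HI and NaCl/HI, filled where the adjusted p was under 0.05 in limma over all genes. Filled points number 27 for LPS, 25 for LPS/HI and 0 for NaCl/HI, and the 24 replication-dependent genes lie right of 0 in each panel.

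Among the linker histones, which compact the nucleosome chain, H1f2 was the member with the highest mean. Its values in Sham were 12.91 at the lowest, 13.08 at the median and 13.19 at the highest, and in LPS they were 13.63, 13.75, 13.60, 13.87 and 13.62. NaCl/HI libraries spanned 13.03, 13.19 and 13.24 and LPS/HI libraries 13.21, 13.43 and 13.52 (lowest, median, highest). All LPS libraries exceeded every library of the other 3 groups, and all LPS/HI libraries exceeded Sham. The difference between LPS and Sham was 0.63 ± 0.06 (SE), a fold change of 1.55. H1f1, the linker histone with the widest spread of group means, had Sham values of 9.88, 9.97 and 10.35 (lowest, median, highest) and LPS values of 10.63, 10.83, 10.66, 11.22 and 10.76. It lay between 10.26 and 10.51 in NaCl/HI and between 10.32 and 10.85 in LPS/HI, so that LPS overlapped with LPS/HI only. H1f4 and H1f5 differed between LPS and Sham by 0.69 ± 0.07 and 0.72 ± 0.08 (SE).

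The promoter window of H1f5 is given together with that of H1f0, since H1f5 belongs to the replication-dependent linker histones and H1f0 replaces such histones in resting and differentiated cells. Sequences are the 150 bases before the start of the RefSeq gene model on GRCr8, read 5′ to 3′ on the strand of the gene, and capitals mark exact matches, on either strand, to the CCAAT box (CCAAT), the TATA box (TATAAA) or the octamer (ATTTGCAT).
H1f5, chr17:47421725-47421874, plus strand: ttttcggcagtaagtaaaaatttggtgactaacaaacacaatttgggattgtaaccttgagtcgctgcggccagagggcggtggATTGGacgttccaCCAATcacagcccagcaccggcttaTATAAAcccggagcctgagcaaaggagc
H1f0, chr7:112473130-112473279, plus strand: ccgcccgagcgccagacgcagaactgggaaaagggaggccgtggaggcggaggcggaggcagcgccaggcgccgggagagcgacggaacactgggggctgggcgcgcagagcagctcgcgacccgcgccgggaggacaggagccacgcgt
H1f5 carries 2 CCAAT boxes and a TATA box in this window and H1f0 none of the 3 motifs. H1f0 ranged from 11.45 to 11.82 in Sham around a median of 11.61, and the LPS libraries had 11.95, 11.96, 11.82, 12 and 11.76. The groups overlapped, and the difference was 0.28 ± 0.06 (SE). H1f10, the other replication-independent linker histone, differed by 0.58 ± 0.12 (SE), with LPS libraries between 7.13 and 7.59 and Sham libraries between 6.52 and 6.97. The germline linker histones H1f6 (testis) and H1f8 (oocyte) did not pass the test, with differences of 0.31 and −0.09.

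All 8 H2A genes were higher in LPS than in Sham. H2ac4, an H2A gene of the large cluster, had Sham values of 9.23, 9.40 and 9.71 (lowest, median, highest) and LPS values of 10.43, 10.33, 10.43, 10.75 and 10.22. NaCl/HI libraries lay between 9.21 and 10.02 and LPS/HI libraries between 9.31 and 10.22, so that LPS was separate from Sham and NaCl/HI and touched LPS/HI. H2ac12 rose most among the H2A genes, by 1.05 ± 0.15 (SE), a fold change of 2.07. It was 6.84, 6.88 and 7.19 in Sham (lowest, median, highest) and 8.02, 7.96, 7.95, 8.28 and 7.71 in LPS. Its spread was wide in NaCl/HI, from 6.59 to 7.62, and LPS/HI libraries lay between 6.97 and 7.71. The difference between LPS and Sham was 1.02 ± 0.15 (SE) for H2ac4, 0.99 ± 0.13 for Hist1h2ac and 0.98 ± 0.13 for H2ac25.

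H2ac1 and H2bc1 encode the testis forms of H2A and H2B and lie head to head on chromosome 17, where their 300-base windows on opposite strands share 261 bases. H2ac1 had Sham values of 6.91, 7.14 and 7.30 (lowest, median, highest) and LPS values of 7.88, 7.83, 8.06, 8.35 and 7.73. H2bc1 had Sham values of 7.52, 7.72 and 7.88 and LPS values of 7.32, 7.36, 7.47, 7.54 and 7.68. The pair thus differed in sign, with differences of 0.85 ± 0.13 (SE) for H2ac1, which passed the test, and −0.24 ± 0.11 (SE) for H2bc1, which did not. Reads of H2ac1 may be shared with other H2A copies, which was not tested.

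The promoter of H2ac12, the H2A gene with the largest difference, contained 3 CCAAT boxes and a TATA box within the 150 bases before its start, marked in capitals as above.
H2ac12, chr17:47182043-47182192, plus strand: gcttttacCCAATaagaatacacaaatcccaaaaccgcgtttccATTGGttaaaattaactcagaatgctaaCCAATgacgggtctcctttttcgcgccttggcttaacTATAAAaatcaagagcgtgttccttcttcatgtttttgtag
In the wider windows of 250 bases before to 50 bases after the start, 6 of 7 replication-dependent H2A genes held at least 2 CCAAT boxes.

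H2B genes pair with H2A in the nucleosome, and 6 of 7 were higher in LPS than in Sham. H2bc18, the H2B gene with the highest mean, had 11.77, 11.93 and 12.12 in Sham (lowest, median, highest) and 12.60, 12.51, 12.80, 13.21 and 12.58 in LPS. Its NaCl/HI libraries lay between 12.11 and 12.47 and its LPS/HI libraries between 12.24 and 12.59, so that both LPS-treated groups were separate from Sham. Hist1h2bc, the H2B gene with the widest spread of group means, had 9.40, 9.54 and 9.92 in Sham and 10.59, 10.50, 10.64, 10.95 and 10.31 in LPS. It lay between 9.52 and 10.26 in NaCl/HI and between 9.95 and 10.49 in LPS/HI. LPS overlapped with LPS/HI only. Hist1h2bg, a further H2B copy, had 8.95, 9.13 and 9.58 in Sham and 10.07, 10.01, 10.33, 10.61 and 10.14 in LPS, and its LPS libraries exceeded all others. The differences between LPS and Sham were 0.78 ± 0.11 (SE) for H2bc18, 1.02 ± 0.13 for Hist1h2bc and 1.00 ± 0.14 for Hist1h2bg.

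The octamer is a known element of H2B promoters, and the windows of H2bc18 and Hist1h2bc are shown because 1 of them holds it in the 150 bases before the start and the other does not.
H2bc18, chr2:186527047-186527196, plus strand: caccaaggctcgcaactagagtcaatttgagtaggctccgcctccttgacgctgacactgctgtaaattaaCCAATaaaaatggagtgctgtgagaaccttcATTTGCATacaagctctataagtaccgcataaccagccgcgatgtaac
Hist1h2bc, chr17:47392350-47392499, minus strand: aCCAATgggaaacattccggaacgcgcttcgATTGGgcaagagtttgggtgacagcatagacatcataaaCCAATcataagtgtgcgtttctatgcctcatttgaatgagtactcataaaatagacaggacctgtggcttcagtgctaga
Both genes were higher in LPS, with and without the octamer letters. Among the 6 replication-dependent H2B genes, 2 held the octamer in the 300-base window and 6 held at least 2 CCAAT boxes.

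H3 genes carry the tail on which many chromatin marks are set, and the 4 members were all higher in LPS. Hist1h3b, the H3 gene with the highest mean, had 10.86, 11.01 and 11.29 in Sham (lowest, median, highest) and 11.98, 12.04, 11.93, 12.17 and 12.04 in LPS. H3c13 had 10.73, 10.88 and 11.17 in Sham and 12.03, 11.92, 11.95, 12.26 and 11.78 in LPS. For both genes the LPS libraries lay above all others, since the highest LPS/HI libraries had 11.82 and 11.75. Hist2h3c2 showed the same separation, with 9.83, 9.92 and 10.19 in Sham, 11.03, 11.03, 10.86, 11.15 and 10.85 in LPS and at most 10.75 in LPS/HI. H3c13 had the largest difference of all members, 1.09 ± 0.13 (SE), a fold change of 2.13, and the difference was 1.02 ± 0.14 for Hist2h3c2, 0.96 ± 0.12 for Hist1h3b and 0.88 ± 0.12 for H3c1. The window of H3c13 is shown as that of the member with the largest difference.
H3c13, chr17:41960010-41960159, minus strand: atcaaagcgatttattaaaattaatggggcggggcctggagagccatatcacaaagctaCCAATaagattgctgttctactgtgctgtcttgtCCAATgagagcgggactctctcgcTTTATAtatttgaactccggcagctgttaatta
It contained 2 CCAAT boxes and a TATA box on the opposite strand.

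H4, the most conserved core histone, was represented by 3 genes. Hist1h4m, the H4 gene with the highest mean, had 13.05, 13.12 and 13.40 in Sham (lowest, median, highest) and 14, 13.97, 13.99, 14.33 and 13.92 in LPS. NaCl/HI libraries lay between 13.12 and 13.64 and LPS/HI libraries between 13.26 and 13.82, all below LPS. Hist1h4b had 8.71, 8.91 and 9.41 in Sham and 9.82, 9.56, 10.09, 10.24 and 9.66 in LPS. LPS was separate from Sham for this gene but overlapped with NaCl/HI (8.93 to 9.76) and LPS/HI (9.04 to 9.70). The difference between LPS and Sham was 0.86 ± 0.10 (SE) for Hist1h4m, 0.92 ± 0.15 for Hist1h4b and 0.74 ± 0.09 for Hist2h4.

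The windows of both H4 genes held no exact match to the 3 motifs, but they shared a run of 28 bases, shown in capitals below. It began at position −75 from the start of Hist1h4b and at −60 from that of Hist1h4m.
Hist1h4b, chr17:47176096-47176245, plus strand: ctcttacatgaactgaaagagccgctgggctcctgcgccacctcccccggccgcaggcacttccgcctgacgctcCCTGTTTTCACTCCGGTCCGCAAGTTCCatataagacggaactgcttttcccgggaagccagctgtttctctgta
Hist1h4m, chr17:47393614-47393763, plus strand: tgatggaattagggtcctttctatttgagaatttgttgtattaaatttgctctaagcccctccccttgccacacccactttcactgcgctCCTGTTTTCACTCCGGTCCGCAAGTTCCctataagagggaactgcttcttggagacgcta
This run was present in 2 of 33469 promoters of the RefSeq table, those of the 2 H4 genes themselves.

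**Figure D3:**
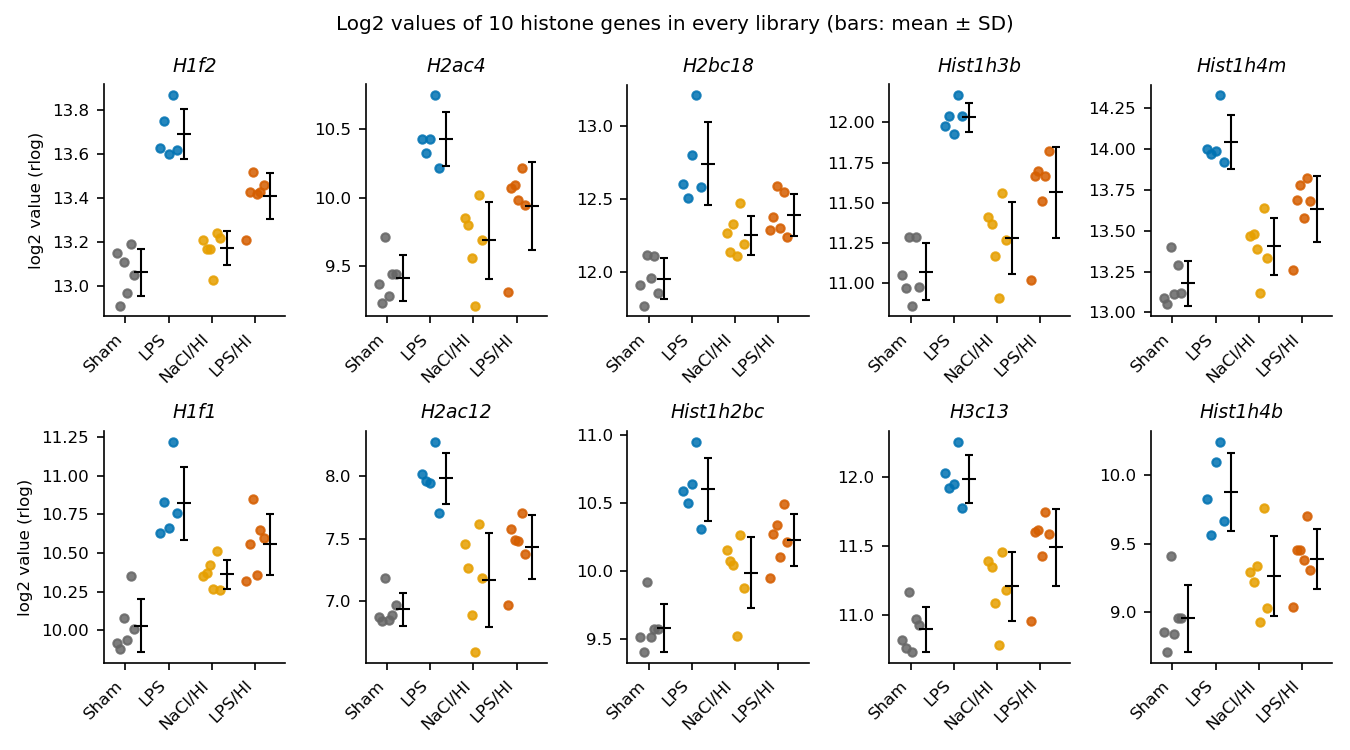
Log2 value (vertical axes, scaled per gene) in every library of the 4 groups (horizontal axis) for 10 histone genes, with black bars giving mean ± SD. The LPS points lie above all Sham points in each panel, and the means of the HI groups lie between those of Sham and LPS, while single HI libraries overlap with Sham, with LPS or with each other.

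Promoters were compared with those of all genes because the members moved together. RefSeq windows were found for 28 of the 30 genes, and for 22 of the 24 replication-dependent ones. At least 1 CCAAT box was present in 19 of these 22, against 37.5% of all 33469 promoters, and at least 2 in 16 of the 22, against 11.2%. The TATA box letters were present in 11 of the 22, against 14.2%, and the octamer in 5 of the 22, against 1.78%. Hist1h2ao, like Hist1h4b and Hist1h4m, held no exact match to the 3 motifs, and it differed between LPS and Sham by 0.94 ± 0.12 (SE). Near matches were not counted. A match of letters is a description and not a bound site.

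**Figure D4:**
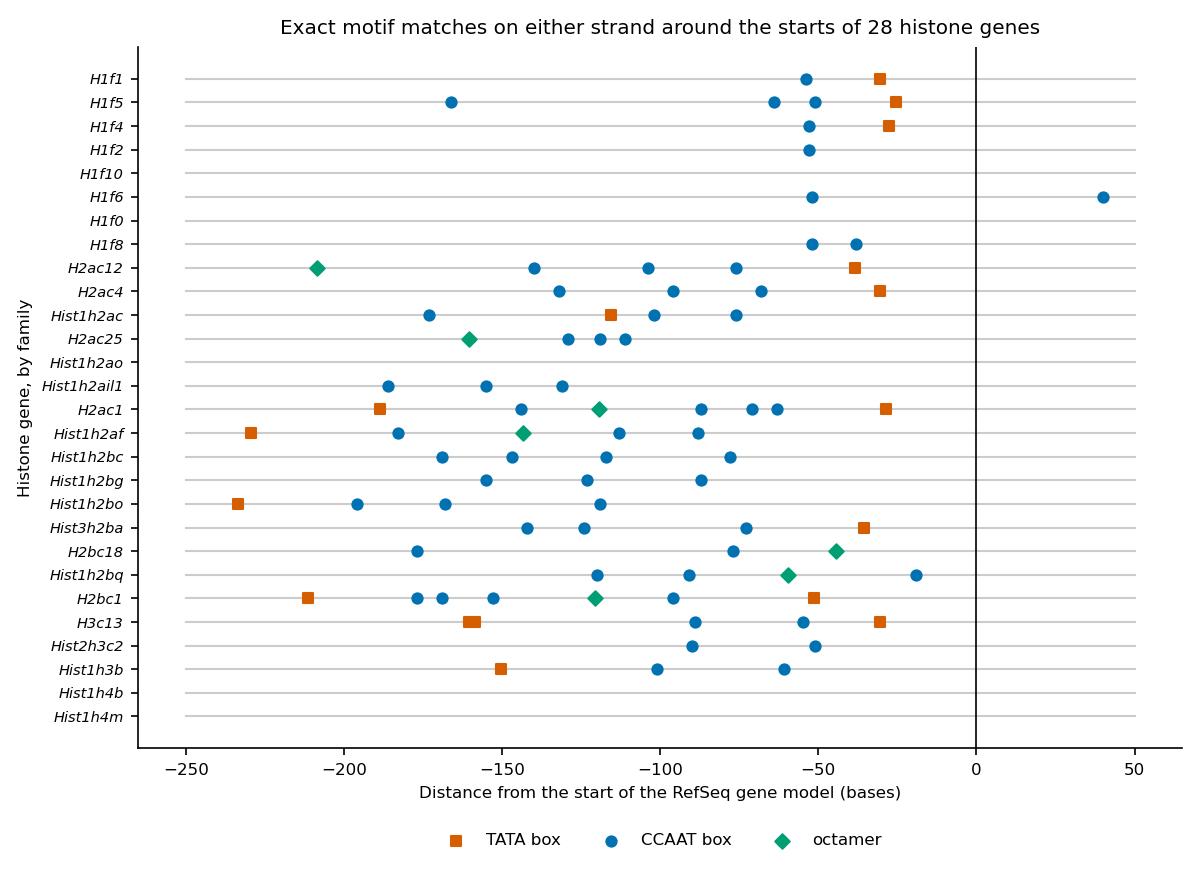
Positions of CCAAT boxes, TATA boxes and octamers (symbols) relative to the start of the RefSeq gene model in bases (horizontal axis, 0 at the start) for 28 histone genes by family (vertical axis). CCAAT boxes are present in each H2B and H3 window, and the lines of Hist1h4b, Hist1h4m, H1f0, H1f10 and Hist1h2ao are empty.

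The members were also clustered in the genome. On GRCr8, 22 of the 29 genes with a RefSeq entry lay on chromosome 17, in a run of 12 and a run of 10 genes with gaps of at most 1000000 bases. In the run of 10, from Hist1h2ac to H2ac4, 10 genes were higher in LPS than in Sham, against 10.2% of all genes, with a median difference of 0.95. In the run of 12, from H2ac1 to Hist1h2bg, 10 were higher, with a median of 0.78, and the 2 others were the germline genes H2bc1 and H1f6. The pairs outside chromosome 17 were of similar size, with a median of 0.94 for Hist3h2ba and H2ac25 on chromosome 10 and 0.90 for Hist2h3c2 and H2bc18 on chromosome 2.

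In the next comparison, HI without LPS was set against Sham. Differences were small and positive, with a median of 0.24 over the 30 genes and a range from 0.08 to 0.41 over the 24 replication-dependent ones. Of the 30 genes, 29 had a positive difference (H2bc1 had −0.21), but 0 passed the test in limma (0.00985% of all genes did). The exact Wilcoxon test called 0 of all genes. With so few libraries this test has a lowest possible p, which even genes without overlap cannot go below. Such genes pass only if very many others reach it, so the 0 does not bear on single genes. In limma at an unadjusted p under 0.05, 15 of the 30 were higher, against 7.33% of all genes. The lowest adjusted p was 0.149, for Hist3h2ba (0.32 ± 0.09, SE), and Hist1h2bc had the largest difference (0.41 ± 0.12, SE). H2ac1 was the 1 gene whose groups did not overlap, against 0.522% of all genes. Without NaCl/HI replicate 4, 4 histone genes passed, while calls over all genes, in either direction, went from 2 to 604.

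The combined insult of LPS and HI was then compared with Sham. In LPS/HI 25 of 30 genes were higher than in Sham (limma), as were 5.3% of all genes, including 23 of the 24 replication-dependent genes. The median difference of the replication-dependent genes was 0.48, with a range from 0.33 (Hist1h2bq) to 0.64 (Hist1h2bc), and 0 exceeded a fold change of 2. Hist1h4b was the 1 replication-dependent gene that did not pass, with 0.43 ± 0.14 (SE) and an adjusted p of 0.0598. The groups did not overlap for 8 genes (H1f2, H1f4, H1f5, H2ac1, H2bc18, Hist1h2bc, Hist1h2bo and Hist1h2bq), against 3.85% of all genes. Linker histones had the smallest adjusted p-values, 0.00197 for H1f4 (0.42 ± 0.07, SE) and 0.002 for H1f5 (0.47 ± 0.08, SE). The exact Wilcoxon test called 12 of the 30 genes and 1998 of all genes in either direction, where limma called 1781.

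LPS/HI was lower than LPS alone by a median of 0.42 on the log2 scale over the replication-dependent genes, which differed by −0.55 to −0.25. Of the 30 genes, 6 were called lower (H1f2, H3c1, Hist1h2bo, Hist1h3b, Hist1h4m and Hist3h2ba), against 0.719% of all genes, and 25 were lower at an unadjusted p under 0.05, against 6.88%. The exact Wilcoxon test called 0 of all genes, also where the groups did not overlap, since the number of libraries limits its lowest possible p. In limma Hist3h2ba had −0.45 ± 0.09 (SE, adjusted p = 0.0156) and H1f2 had −0.28 ± 0.06 (SE, adjusted p = 0.0275). The groups did not overlap for 14 genes, all of them replication-dependent, against 1.85% of all genes. The count of calls moved with the fit, to 1 with only the 2 groups compared (197 of all genes in either direction), 16 after median centring (602) and 21 with 19 residual degrees of freedom (1006). It also moved with single libraries, to 0 without LPS replicate 4, 1 without LPS replicate 2 or LPS/HI replicate 1, 2 or 4, 3 without LPS replicate 1 and 13 without NaCl/HI replicate 4. Calls over all genes, in either direction, went from 394 to between 89 and 485 when single libraries were left out, and the median over the 30 histone genes stayed between −0.44 and −0.32. The median over the 30 genes was −0.40 both in libraries 1 to 12 and in libraries 13 to 23.

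Within HI, LPS pretreatment was compared with saline. The difference between LPS/HI and NaCl/HI had a median of 0.23 over the replication-dependent genes, from 0.12 to 0.33. In limma 0 of the 30 genes passed (0.153% of all genes did), and the exact Wilcoxon test, with the same limit of its lowest p, called 0 of all genes. At an unadjusted p under 0.05, 12 of the 30 were higher, against 6.47% of all genes. H1f2 had the lowest adjusted p, 0.103, at 0.24 ± 0.06 (SE), and H1f5 was the 1 gene without overlap, against 0.901% of all genes. Without LPS/HI replicate 1, 3 histone genes passed, while calls over all genes, in either direction, went from 41 to 154. The median over the replication-dependent genes was 0.14 in libraries 1 to 12 and 0.30 in libraries 13 to 23.

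LPS alone and HI alone were also set side by side. In LPS 26 of 30 genes were higher than in NaCl/HI, with all 24 replication-dependent genes among them, against 5.32% of all genes, and 23 did not overlap, against 4.79%. The differences of the replication-dependent genes ranged from 0.44 (Hist1h2bq) to 0.81 (H2ac12, H3c1 and Hist2h3c2). H1f2 had the lowest adjusted p, 3.62e-05, at 0.52 ± 0.06 (SE). The exact Wilcoxon test called 0 of all genes in this comparison, the 23 without overlap included, since the number of libraries limits its lowest possible p. A fold change of 2 was exceeded by 0 of the histone genes called in limma. Higher in limma as well were 24 of 24 genes of G2 and mitosis and 1 of 29 genes of DNA synthesis, where 1 was lower.

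The LPS difference was smaller with HI than without it for part of the genes. With HI, LPS was set against saline-injected pups, and without HI against Sham pups that had no injection. The interaction, the LPS difference in HI pups minus that in pups without HI, had a median of −0.68 over the replication-dependent genes, from −0.83 to −0.39. It passed for 14 of 30 genes, all replication-dependent, against 0.719% of all genes. It was also called lower for 14 of 24 genes of G2 and mitosis (median −0.47) and 1 of 29 genes of DNA synthesis. Hist3h2ba had −0.76 ± 0.13 (SE, adjusted p = 0.0123) and Hist1h2bo −0.73 ± 0.13 (SE, adjusted p = 0.0157), both H2B genes. H1f4 had −0.49 ± 0.10 (SE, adjusted p = 0.028), and Hist1h2bg had the largest value, −0.83 ± 0.19 (SE, adjusted p = 0.0436). The count of histone genes rested on single libraries. It was 2 without Sham replicate 2 or 4, LPS replicate 4, NaCl/HI replicate 1 or 2 or LPS/HI replicate 2, 3 without NaCl/HI replicate 5 or LPS/HI replicate 4 or 6, 4 without LPS replicate 2, 8 without Sham replicate 1, 9 without Sham replicate 6 and 23 without NaCl/HI replicate 4. Calls over all genes, in either direction, were 220 and lay between 44 and 505 when single libraries were left out.

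Genes that work with histones were taken from 6 fixed lists and compared between LPS and Sham. Replacement histones, which enter chromatin independently of replication, were higher for 7 of 9 genes with a median of 0.40, and 0 were lower, against 10.2% and 7.56% of all genes. H2ax, the variant phosphorylated at DNA breaks, rose by 0.83 (adjusted p = 3.14e-05), and H2az1 and H2aj rose by 0.58 each. Cenpa, the H3 variant of centromeres, rose by 0.51, and the members that did not pass, H3f3a (0.12) and Macroh2a2 (−0.09), were named after their values were seen. Histone chaperones were higher for 8 of 24 genes with a median of 0.09, against the same 10.2%. Asf1b, which hands new H3 and H4 to the replication fork, rose by 0.67 (adjusted p = 8.55e-06), and Anp32e, Nasp and Hjurp rose by 0.29 each.

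Of the machinery that makes and degrades histone mRNA, 4 of 22 genes were higher and 0 lower, with a median of 0.09, against the 10.2% of all genes that were higher. Slbp, the stem-loop binding protein, had 0.04 (adjusted p = 0.693), and Npat, the activator of histone gene clusters, had 0.03 (adjusted p = 0.649). The core spliceosomal proteins Snrpf and Snrpb, shared with the U7 particle that cuts histone mRNA ends, rose by 0.32 and 0.17, Sympk of the cleavage complex rose by 0.19, and Snrpe (0.19) did not pass the test. Srrt, a partner of the nuclear cap-binding complex and the last of the 4, rose by 0.14, and was named after its value was seen. A list of 165 small RNAs without poly(A) tails was higher for 3 and lower for 22 members, with a median of −0.04 (7.56% of all genes were lower), and its library means lay between 3.44 and 3.51 in Sham and between 3.38 and 3.45 in LPS.

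Genes of DNA synthesis were higher in LPS for 13 of 29 members with a median of 0.14, against 10.2% of all genes, and 0 were lower. The ribonucleotide reductase subunits Rrm1 and Rrm2 rose by 0.50 and 0.41, Uhrf1, which copies DNA methylation, by 0.47, and Tk1, a thymidine kinase, by 0.43, while Pcna, the replication clamp, had −0.05 (adjusted p = 0.666). Genes of G2 and mitosis were higher for 24 of 24 members with a median of 0.74, against the same share. Plk1 rose by 0.88, Ccnb1 and Ccnb2 by 0.86, Birc5 by 0.85 and the proliferation marker Mki67 by 0.61 (adjusted p = 0.000148). Library means of this list lay between 10.30 and 10.71 in Sham and between 10.99 and 11.44 in LPS. In NaCl/HI against Sham these lists had 0 calls in limma, with a median of 0.18 for DNA synthesis and 0.16 for G2 and mitosis. At an unadjusted p under 0.05 were 18 of 29 DNA synthesis genes and 10 of 24 G2 and mitosis genes, against 14.8% of all genes. In LPS/HI against Sham 9 of 29 DNA synthesis genes, 24 of 24 G2 and mitosis genes, 3 of 9 replacement histones, 3 of 24 chaperones and 2 of 22 machinery genes were higher, against 5.3% of all genes. In LPS/HI against LPS 9 of 24 G2 and mitosis genes were lower, against 0.719% of all genes. In limma 0 of the DNA synthesis genes (2 of 29 at an unadjusted p under 0.05), the chaperones (3 of 24), the replacement histones (5 of 9) and the machinery genes (2 of 22) passed, where 15.5% of all genes were at an unadjusted p under 0.05. Plk1 and Ccnb2 fell by 0.42 and 0.44 there, in a G2 and mitosis list with a median of −0.31 and a range from −0.44 to −0.12.

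**Figure D5:**
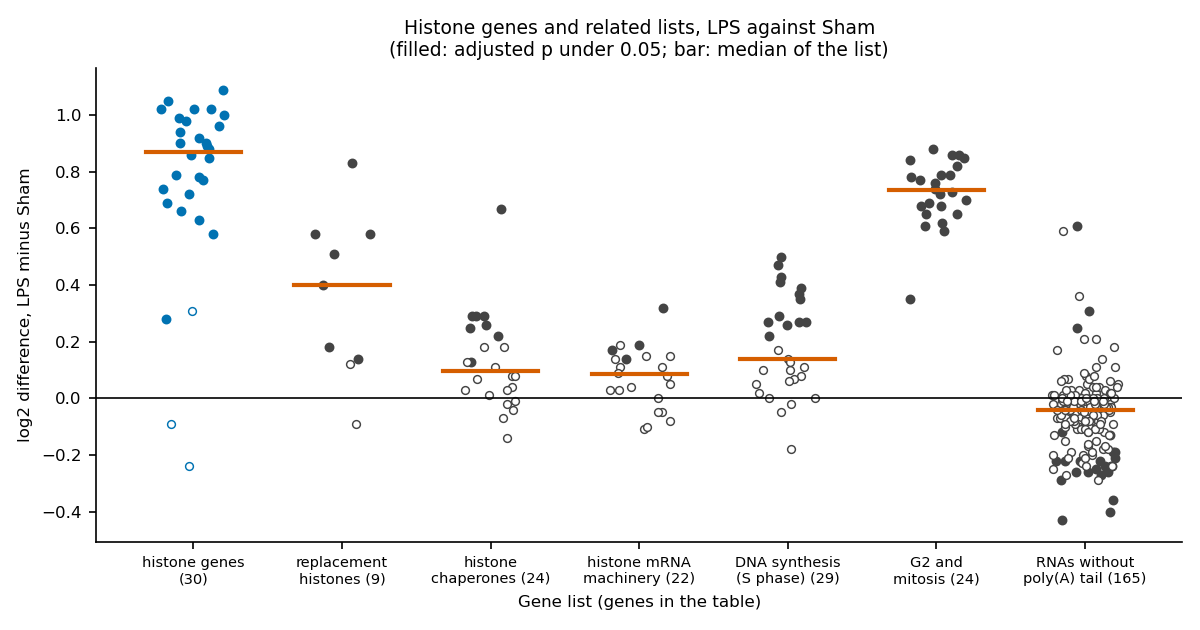
Log2 difference between LPS and Sham (vertical axis) of each gene of the 30 histone genes and of 6 related lists (horizontal axis, number of genes in brackets), filled where the adjusted p was under 0.05, with bars at the list medians. The medians are 0.87 for histone genes, 0.74 for G2 and mitosis, 0.40 for replacement histones and 0.14 for DNA synthesis, and the other 3 lie between −0.04 and 0.09.

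Markers of other cells were checked in the same comparison. Of the 9 microglial markers reported here, C1qa was higher and P2ry12, Sall1 and Cx3cr1 were lower in LPS, against 10.2% and 7.56% of all genes. Of 10 neutrophil markers, Csf3r was higher and Ngp (−1.07) and Camp (−0.71) were lower, with list means from 6.60 to 6.95 in Sham and from 6.42 to 6.78 in LPS. Of 8 monocyte and lymphocyte markers, Plac8 (1.17) and Ly86 (0.47) were higher, with means from 5.75 to 5.85 in Sham and from 5.89 to 6.05 in LPS. Neutrophil list means were 6.36 to 6.91 in NaCl/HI and 6.64 to 7.40 in LPS/HI. In the erythroid and oligodendrocyte lists of 8 genes each 0 passed in limma, with 3 and 1 at an unadjusted p under 0.05, against 32% of all genes. Of 7 endothelial markers, Pecam1 was higher and Kdr and Flt1 were lower, and of 6 neuronal markers, Snap25, Syt1 and Stmn2 were lower. Among 8 progenitor markers Nes was lower, and among 6 astrocyte markers Aldh1l1 was higher. The markers in this paragraph were named after their values were seen, and their part in the histone differences was not tested.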

How the data were processed

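RNA of CD11b/c-positive microglia was sequenced from 23 samples in 4 groups. The authors pseudoaligned reads to mRatBN7.2 with kallisto 0.48.0, summarised them per gene, left out genes with fewer than 10 counts in all, summed protein-coding genes of the same symbol, and applied the regularised log transformation of DESeq2. They then removed 3 surrogate variables, and the deposited values are on this log2 scale. Quality reports had been made with FastQC 0.11.9 and MultiQC 1.14. Depth is therefore unknown, counts could not be tested, and log2 differences of low genes are shrunken.

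Here limma 3.58.1 (R 4.3.3, variance trend) was fitted to all 20301 genes and 23 samples as 4 group means, without covariates. For the removed surrogate variables, 16 in place of 19 residual degrees of freedom were used and the variance was raised accordingly. SDs, ranges, overlaps and the Wilcoxon test were not adjusted for them. A gene was called at a Benjamini-Hochberg adjusted p under 0.05. The script was tested on simulated data. Tables and plots were made with Python 3.11.15, pandas 2.3.3 and matplotlib 3.10.9. Groups came from the sample labels. Labels do not state whether pups came from separate litters, so p-values measure the spread between samples. The members, the 15 gene lists and the tests were chosen with earlier results of these data known. All members are accounted for. A marker of the microglial list is not reported here. Values per sample are given for the member with the highest mean and that with the widest spread of group means in each family, and for every member called with a fold change above 2; from each related list at most 4 genes with the largest difference are named, plus Slbp, Npat, Mki67, Pcna and Cenpa, and any further gene is marked in the text as named after its value was seen. Alternatives were another degrees of freedom, centring, filtering, only the groups compared, an exact Wilcoxon test, a replicate block, a split of the library numbers after 12 (chosen here, not defined by the labels) and leaving out each library. Promoters came from RefSeq GRCr8 (29 symbols matched, 28 promoters), another build than that of the deposited values, so coordinates serve for the sequences alone.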

Additional observations from a re-analysis of the deposited data

Results flagged for a closer look

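Within groups, 20 of 120 combinations of gene and group (16.7%) had a library that lay far from the others by Dixon's test, where chance alone gives about 1 in 20, and the members are not independent of each other. LPS/HI replicate 1 was the lowest of its group for H1f0 (log2 value 11.69), H1f10 (6.48), H1f2 (13.21), H2ac4 (9.31), H3c1 (10.42), Hist1h2ac (8.89), Hist1h2ail1 (8.04), Hist2h3c2 (9.82), Hist2h4 (9.74) and Hist3h2ba (7.65). NaCl/HI replicate 4 was the lowest of its group for H1f10 (6.61), H1f2 (13.03) and H1f5 (11.99). LPS replicate 4 was the highest of its group for H1f5 (12.91), Hist1h2af (6.79) and Hist1h4m (14.33). Sham replicate 3 was the highest of its group for H2ac12 (7.19), Hist1h2ao (9.46), Hist1h2bc (9.92) and Hist1h4b (9.41).

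For 14 genes the LPS difference was smaller with HI than without it by limma's interaction term, against 0.719% of all genes, and the count fell to 2 when any 1 of 6 libraries was left out. On the log2 scale the interaction was −0.60 for H1f1, −0.39 for H1f2, −0.49 for H1f4 and −0.50 for H1f5 among the linker histones. It was −0.73 for Hist1h2ac and −0.78 for Hist1h2ao among the H2A genes. Among the H2B genes it was −0.64 for H2bc18, −0.78 for Hist1h2bc, −0.83 for Hist1h2bg, −0.73 for Hist1h2bo, −0.54 for Hist1h2bq and −0.76 for Hist3h2ba. H3c13 had −0.81 and Hist1h4m −0.63. Tissue and pooling differ with HI in this contrast and cannot be told apart from it. The reference also differs, as it had a saline injection with HI and no injection without HI.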

How the results depend on the processing

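Medians over the 30 histone genes kept their sign and stayed within the spread between libraries in the 6 comparisons of 2 groups under centring, quantile normalization, filtering, a mean in place of the median, the replication-dependent genes alone, the split of the library numbers and leaving out single libraries. Medians were not computed for the other alternatives or the interaction. In all alternatives run, 0 of the results reversed. Leaving out 1 library moved the median to between 0.80 and 0.91 for LPS versus Sham, 0.19 and 0.29 for NaCl/HI versus Sham, 0.42 and 0.52 for LPS/HI versus Sham, −0.44 and −0.32 for LPS/HI versus LPS, 0.15 and 0.25 for LPS/HI versus NaCl/HI, and 0.52 and 0.63 for LPS versus NaCl/HI. Counts of called genes moved more. Leaving out 1 library gave 27 to 28 for LPS versus Sham (2448 to 4010 of all genes, in either direction) and 24 to 27 for LPS versus NaCl/HI (1113 to 2063). It gave 18 to 27 for LPS/HI versus Sham (853 to 2652) and 0 to 13 for LPS/HI versus LPS (89 to 485). The range was 0 to 3 for LPS/HI versus NaCl/HI (1 to 154), 0 to 4 for NaCl/HI versus Sham (0 to 604) and 2 to 23 for the interaction (44 to 505). With a fold change above 2 required as well, the count was 6 for LPS versus Sham and 0 for LPS/HI versus Sham, LPS/HI versus LPS and LPS versus NaCl/HI. The exact Wilcoxon test called 27 for LPS versus Sham (3887 of all genes), 12 for LPS/HI versus Sham (1998), and 0 for LPS/HI versus LPS and LPS versus NaCl/HI, where it called 0 of all genes. Its lowest possible p is set by the number of libraries, so a gene without overlap passes only if very many genes reach that p. These 0 counts therefore do not bear on single genes. With 19 residual degrees of freedom the count was 21 for LPS/HI versus LPS (1006 of all genes), 1 for LPS/HI versus NaCl/HI (243) and 25 for the interaction (666). In the main fit, calls over all genes were 394, 41 and 220 there. For LPS/HI versus LPS the count was 11 without the lowest 25% of genes (478 of 15226 genes), 16 after median centring (602 of all genes) and 1 with only the 2 groups compared (197). The cause of these shifts was not tested, other than that fewer samples or degrees of freedom enter some fits. Same-numbered samples did not deviate together (median correlation −0.0304 over 33 pairs), so the numbers do not pair the samples; with a replicate block the count was 27 for LPS versus Sham (2732 of all genes), 22 for LPS/HI versus Sham (1270), 25 for LPS versus NaCl/HI (1407), 1 for LPS/HI versus LPS (170) and 2 for the interaction (23). The added alternative of taking group differences within libraries 1 to 12 and 13 to 23 was chosen after seeing the data and involved no fit. With the 2 parts as a term in limma the count was 27 for LPS versus Sham (3385 of all genes) and 25 for LPS/HI versus Sham (1718). It was 25 for LPS versus NaCl/HI (1796), 5 for LPS/HI versus LPS (374) and 13 for the interaction (164). Depth is unknown, and no limit of detection could be given.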
